A study of Homo sapiens with 12 samples.

Results

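Of the 28278 genes counted in K562 cells with and without HRG1, 49 had reads in the knockout cells and almost none in the wild type (WT) cells. A gene was included when its mean was above 5 CPM (the count scaled to a library total of 1000000) in both knockout groups and below 0.1 CPM in both WT groups. Genes whose symbols begin with COL, KRT, HOX, LINC, MAGE, GAGE, XAGE, PAGE, SSX or CTAG, or contain -AS, were left out, which removed 9 of the 58 genes that met the thresholds. The measured difference between the genotypes therefore chose these genes, and their levels in the 2 genotypes are described here without a test. RefSeq lists 46 of the 49 as protein-coding, 2 as long noncoding RNAs and 1 as a transcribed pseudogene. The same rule turned around, with reads in WT and almost none in the knockout, held for 52 genes.

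RNA sequencing was done on K562, a human erythroleukaemia line, either WT or lacking HRG1 (HRG1-KO), with 3 libraries in each of 4 groups. The treated groups received 0.75 mM sodium butyrate 24 h after plating and again 48 h later and were collected 6 h after the second dose, while the controls received none, and the series places all samples at day 8 of differentiation. The labels do not give the number of knockout clones, the means of knockout, or whether the libraries of a group came from separate cultures. All p-values therefore measure the spread between these libraries, which may be technical, and a trait of a single clone and an effect of the missing gene cannot be told apart. Library totals ran from 19963594 to 30348538 counts. SLC48A1, the gene that encodes HRG1, had 62.8 to 82.1 CPM in the 6 WT libraries and 2.696 to 10.7 CPM in the 6 HRG1-KO libraries, and the 2 ranges did not overlap.

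HRG1 is a membrane transporter that moves heme out of endosomes and lysosomes into the cytosol. Sodium butyrate inhibits histone deacetylases and drives K562 cells towards erythroid features, including globin expression. A cultured line keeps many genes of other tissues silent through chromatin and DNA methylation, and such silencing can differ between clones and is passed on at cell division. CpG-rich promoters are where methylation of DNA most often goes with lasting silence.

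Because part of the description below turns on promoters and on position in the genome, the stretch upstream of 5 of the genes is shown first. These 5 were chosen after their values were seen. LRP3 has the most CpG pairs near its start among the genes with a sequence, and SULT1C4 the fewest. SOX1 and SIX2 are developmental factors with 0 counts in every WT library, and CLCA1 had the most reads in HRG1-KO cells. The sequences are the 200 bases before the start of the RefSeq gene model (GRCh38.p14), 5′ to 3′ on the gene's own strand, with every CG pair in capitals. They lie at chr19:33194130-33194329 (plus strand), chr13:112066949-112067148 (plus), chr2:45009453-45009652 (minus), chr1:86468727-86468926 (plus) and chr2:108377754-108377953 (plus).
LRP3: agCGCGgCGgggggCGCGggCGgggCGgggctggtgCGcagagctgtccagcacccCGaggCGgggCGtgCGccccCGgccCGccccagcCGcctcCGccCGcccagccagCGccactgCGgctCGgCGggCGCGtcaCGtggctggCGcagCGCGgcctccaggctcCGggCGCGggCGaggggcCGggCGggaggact
SOX1: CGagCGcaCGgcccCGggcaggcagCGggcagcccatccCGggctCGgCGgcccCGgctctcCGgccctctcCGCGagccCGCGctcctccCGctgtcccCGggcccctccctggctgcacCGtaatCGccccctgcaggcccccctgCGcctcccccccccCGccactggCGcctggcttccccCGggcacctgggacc
SIX2: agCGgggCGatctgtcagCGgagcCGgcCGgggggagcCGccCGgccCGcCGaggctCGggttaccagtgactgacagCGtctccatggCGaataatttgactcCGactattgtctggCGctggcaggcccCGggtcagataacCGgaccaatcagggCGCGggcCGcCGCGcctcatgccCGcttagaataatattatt
CLCA1: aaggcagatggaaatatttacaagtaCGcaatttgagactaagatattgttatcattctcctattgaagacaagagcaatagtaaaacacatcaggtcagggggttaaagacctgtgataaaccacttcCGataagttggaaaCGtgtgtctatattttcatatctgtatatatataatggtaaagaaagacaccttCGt
SULT1C4: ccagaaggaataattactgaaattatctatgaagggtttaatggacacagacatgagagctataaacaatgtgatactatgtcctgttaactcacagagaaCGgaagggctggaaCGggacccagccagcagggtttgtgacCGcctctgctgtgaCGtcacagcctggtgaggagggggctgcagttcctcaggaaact
The LRP3 stretch holds 33 CG pairs, the SOX1 and SIX2 stretches 22 each, and the CLCA1 and SULT1C4 stretches 4 each. LRP3, SOX1 and SIX2 are thus dense in CG where CLCA1 and SULT1C4 have few, although all 5 genes met the same rule.

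Both kinds of promoter occurred among the 49 genes. Over the 300 bases from 250 before to 50 after the start, which RefSeq sequence gave for 38 of the 49, the CG count ran from 4 in SULT1C4 to 44 in LRP3, with a median of 24. Of the 38, 27 (71.1%) were CpG-rich, meaning over 50% G and C with an observed to expected CpG ratio above 0.6. The share was 74.8% among the 11688 tested genes with such a sequence, and 22.9% among the 3136 genes with a sequence and 0 counts in all 12 libraries. It was 56.8% among the 37 matched genes of the WT-only group. The letters TATAAA, searched on both strands, were present in 4 of the 38 (10.5%), namely ZNF711, LOC107984132, TFAP2B and SULT1C4, against 6.42% of the tested genes, 21.6% of the WT-only group and 19.2% of the genes with 0 counts. These are counts of letters in a window at the outermost annotated start of each gene and take no account of other starts.

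In WT the 49 genes were at the edge of detection. Summed over the 49, a WT library held 9, 17 and 17 counts without butyrate and 11, 16 and 64 counts with it. In CPM the 3 untreated WT sums were 0.451, 0.788 and 0.592 and the 3 treated ones 0.479, 0.728 and 2.20. The untreated HRG1-KO sums were 874, 1239 and 1189 CPM and the treated ones 1113, 1078 and 1023 CPM. Every HRG1-KO sum lay far above every WT sum, and the third treated WT library stood apart from the other 5 WT libraries, with 23 of the genes showing a count where the others showed 5 to 10. The part of that library in the results was measured by leaving it out, and without it the rule gave 52 genes, 48 of them among the 49.

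Of the 49, 19 had 0 counts in all 6 WT libraries, out of 144344801 WT counts, and the other 30 had 1 to 11. Each of the 49 had a count in every HRG1-KO library, never below 55, and together they made up 0.109% of all HRG1-KO counts. For each of the 49 the lowest HRG1-KO library was above the highest WT library, which the rule makes nearly certain. The share of all tested genes without overlap between the genotypes was not counted. By the edgeR test, a different measure, 22.6% of all 15805 genes tested were called different between the genotypes without butyrate and 19% with it. For the genes with WT counts the ratio of HRG1-KO to WT ran from 128 (95% interval 71.1 to 256, exact, counting error only) for BARX1 to 8645 (2393 to 71387) for CLCA1. Where WT had 0 counts, taking 3 counts over the 6 WT libraries as the limit gave ratios of at least 254 for ZNF492 to at least 3185 for LOC100294145.

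**Figure D1:**
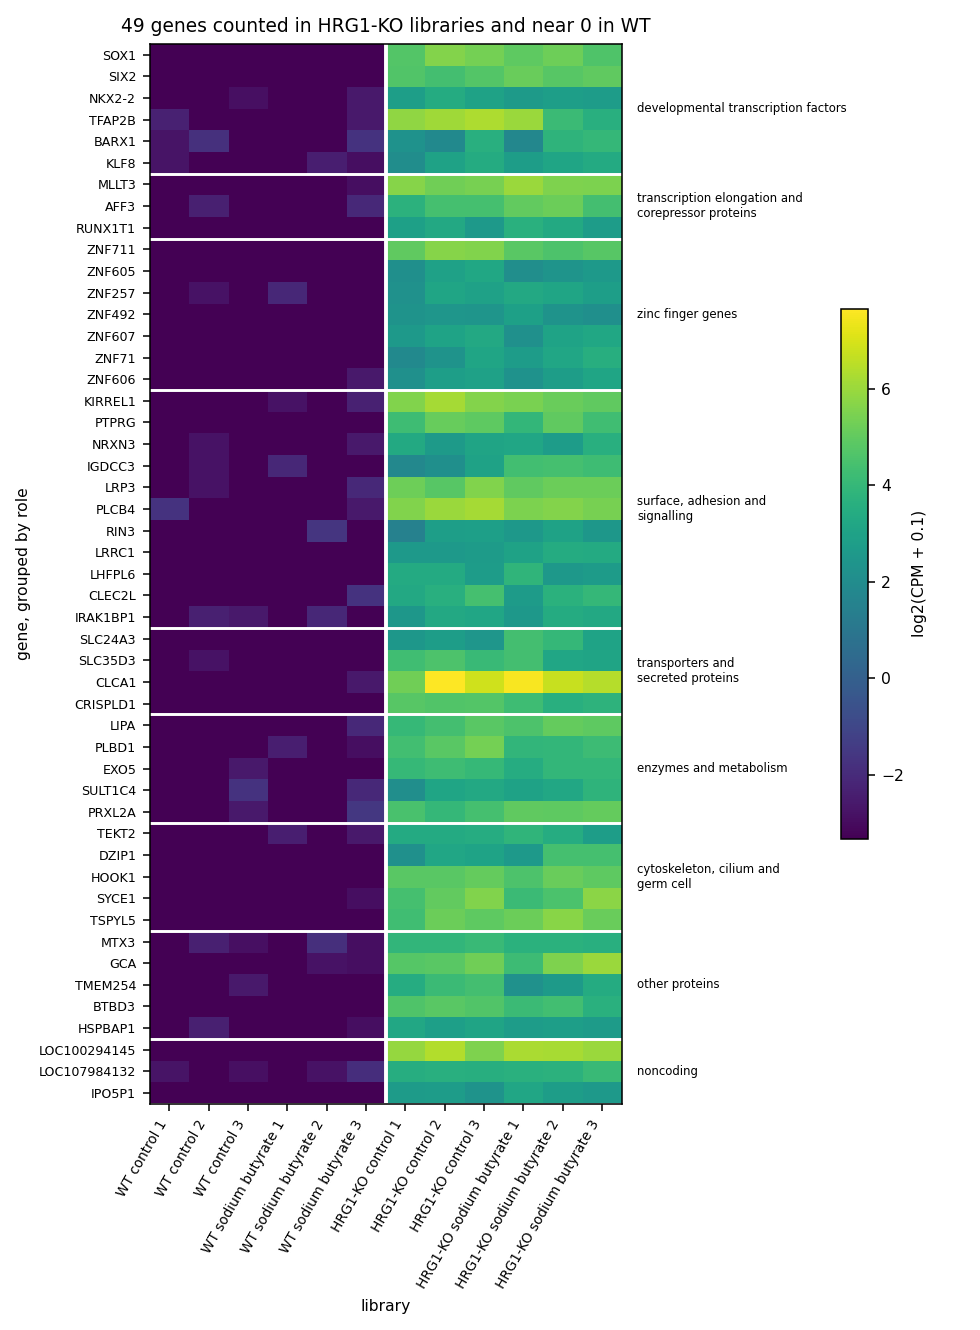
Level of each of the 49 genes (rows, grouped by what the gene product is known to do) in each of the 12 libraries (columns), as log2(CPM + 0.1) on a colour scale. The 6 WT columns are dark for every gene except for scattered single counts, which are most frequent in the third treated WT library, and the 6 HRG1-KO columns are coloured for all 49.

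Developmental transcription factors formed the first set, with 6 genes, most of which belong to other tissues. TFAP2B, an AP-2 factor of neural crest and kidney, had 56.8, 68.7 and 79.0 CPM in the untreated HRG1-KO libraries and 63.1, 17.5 and 11.97 CPM in the treated ones. Its first treated library was as high as the untreated ones and the other 2 were lower, which made it the most uneven of the 49, with a 6.60-fold spread between HRG1-KO libraries. SOX1, a factor of neural progenitors, had 26.0, 48.4 and 40.96 CPM untreated and 30.7, 37.9 and 24.5 CPM treated, with 0 counts in WT. SIX2, a homeobox factor of kidney progenitors, had 25.5, 20.6 and 25.8 CPM untreated and 34.9, 27.8 and 31.2 CPM treated, also with 0 counts in WT. SOX1 values overlapped between the treatments, whereas all 3 treated SIX2 libraries were above the untreated ones by a small margin in CPM. The closest pair, 27.8 CPM treated and 25.8 CPM untreated, had scaling factors of 1.105 and 0.986 in the later fit. CPM leaves these factors out, so the order of that pair rests on the scaling.

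The other members of this set were near the lower limit of the rule. BARX1, a homeobox factor of stomach and tooth mesenchyme, had 4.70, 3.56 and 12.03 CPM untreated and 3.28, 14.2 and 15.9 CPM treated. Its HRG1-KO values fell into 3 low and 3 high libraries that cut across treatment, and with 11 counts in WT it had the most WT reads of the 49. NKX2-2, a homeobox factor of ventral neural tube and endocrine pancreas, averaged 8.50 ± 1.84 CPM (SD, n = 3) untreated and 6.62 ± 0.468 CPM treated. KLF8, a Krüppel-like factor, averaged 7.48 ± 3.29 and 8.61 ± 1.82 CPM.

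A further 3 genes encode chromatin and elongation proteins known as fusion partners in leukaemia or as their relatives. MLLT3 (AF9), a reader of acetylated histones in the super elongation complex, had 50.5, 39.0 and 41.7 CPM untreated and 63.3, 45.7 and 44.6 CPM treated, against 1 read in all WT libraries. It was even across the HRG1-KO libraries, with a 1.62-fold spread. AFF3, a relative of the elongation scaffold AFF1, averaged 18.5 ± 4.66 and 29.6 ± 7.90 CPM. RUNX1T1 (ETO), a corepressor that is fused to RUNX1 in some acute myeloid leukaemias, averaged 7.75 ± 1.99 and 9.70 ± 2.89 CPM, with 0 counts in WT.

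Surface and signalling genes were the largest set, with 11 genes and mean levels over the HRG1-KO libraries from 5.98 to 53.1 CPM. PLCB4, a phospholipase C that acts downstream of Gq-coupled receptors, had 47.7, 63.8 and 71.5 CPM untreated and 44.5, 49.1 and 41.8 CPM treated. KIRREL1 (NEPH1), an adhesion protein of the kidney slit diaphragm, had 47.0, 72.5 and 49.7 CPM untreated and 42.9, 35.3 and 31.4 CPM treated, so that every treated library was below every untreated one. LRP3, a relative of the LDL receptor, had 37.9, 27.7 and 47.5 CPM untreated and 31.4, 36.7 and 36.2 CPM treated, with overlap. WT held 6 reads of PLCB4, 4 of KIRREL1 and 5 of LRP3 in all.

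The lower-level genes of that set included PTPRG, a receptor tyrosine phosphatase, at 27.9 ± 8.23 CPM untreated and 22.1 ± 8.47 CPM treated, and CLEC2L, a C-type lectin-like protein, at 14.4 ± 6.06 and 11.6 ± 4.75 CPM. NRXN3, a neurexin of presynaptic adhesion, averaged 8.19 ± 1.92 and 9.27 ± 2.83 CPM. LHFPL6, a membrane protein, had 9.08 ± 2.19 and 8.86 ± 4.98 CPM. IRAK1BP1, which binds the IRAK1 kinase, had 8.06 ± 2.18 and 8.75 ± 2.65 CPM, and LRRC1, a leucine-rich repeat protein of cell polarity, 6.12 ± 0.281 and 9.55 ± 1.44 CPM. For PTPRG, CLEC2L, NRXN3, LHFPL6 and IRAK1BP1 the treated and untreated libraries overlapped, and for LRRC1 they did not.

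CLCA1, a secreted protein of goblet cells that regulates a calcium-activated chloride current, was the most abundant of the 49. It had 38.5, 201 and 115 CPM in the untreated HRG1-KO libraries and 187, 107 and 86.5 CPM in the treated ones. The lowest and the highest of these were both untreated, and the group means of 118 ± 81.3 and 127 ± 53.1 CPM differed by less than the spread within either group. In WT there were 2 reads of it, both in the third treated library. Per kilobase of exon (GENCODE 29 models) CLCA1 also led the 47 genes with a length, at 36.6 CPM per kb, followed by SIX2 at 12.5, SOX1 at 12.2 and GCA at 10.1 CPM per kb, while ZNF605 was lowest at 0.555 CPM per kb. SIX2 and SOX1 were close on that scale, within the spread of their libraries.

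The remaining transporters and secreted proteins were SLC35D3, CRISPLD1 and SLC24A3. SLC35D3, a transporter-like protein needed for platelet dense granules, averaged 20.4 ± 3.47 CPM untreated and 12.7 ± 6.85 CPM treated. CRISPLD1, a secreted cysteine-rich protein, had 27.5, 25.1 and 25.8 CPM untreated and 19.1, 12.1 and 13.5 CPM treated. SLC24A3, a sodium and potassium dependent calcium exchanger, had 5.54, 6.74 and 5.31 CPM untreated and 20.9, 15.6 and 8.04 CPM treated. The treated libraries were all below the untreated ones for CRISPLD1 and all above them for SLC24A3, and both genes had 0 counts in WT.

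There were 5 enzymes among the 49. LIPA, the acid lipase of lysosomes, had 16.5, 20.4 and 28.7 CPM untreated and 24.2, 33.4 and 30.5 CPM treated, against 4 reads in WT, all in the third treated library. PLBD1, a phospholipase B-like protein, had 19.8, 28.5 and 40.5 CPM untreated and 14.9, 15.4 and 18.5 CPM treated. PRXL2A, a peroxiredoxin-like protein, had 22.7, 15.6 and 21.2 CPM untreated and 31.7, 29.9 and 33.2 CPM treated, and it held the most reads of the 49 in any single WT library, 7 in the third treated one. The treated PLBD1 values all lay below the untreated ones and the treated PRXL2A values all above, while LIPA overlapped. EXO5, a single-strand DNA exonuclease, averaged 17.0 ± 1.37 and 13.8 ± 2.52 CPM, and SULT1C4, a sulfotransferase, 7.46 ± 2.91 and 10.6 ± 3.22 CPM.

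Cytoskeletal, ciliary and germ cell genes made a set of 5. TSPYL5, a relative of the testis protein TSPY, had 19.7, 36.3 and 30.2 CPM untreated and 36.1, 52.5 and 35.4 CPM treated, with 0 counts in WT. SYCE1, a component of the synaptonemal complex of meiosis, averaged 33.8 ± 13.3 CPM untreated and 31.7 ± 19.4 CPM treated, against 1 read in WT. HOOK1, an adaptor between cargo and dynein, averaged 29.9 ± 2.54 and 29.9 ± 5.86 CPM, with 0 counts in WT. TSPYL5 and HOOK1 both overlapped between treatments. TEKT2, a tektin of cilia and flagella, averaged 10.5 ± 0.375 and 10.6 ± 3.75 CPM. DZIP1, a protein of cilium assembly, had 4.51, 8.996 and 8.14 CPM untreated and 5.82, 21.4 and 21.4 CPM treated, and its first library was the lowest in both groups.

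Of the other proteins, GCA (grancalcin, a calcium-binding protein of neutrophils) had 27.1, 28.2 and 38.3 CPM untreated and 18.1, 46.3 and 64.3 CPM treated. The first treated library was the lowest of all 6 and the other treated libraries were the highest. MTX3, a metaxin of the mitochondrial outer membrane, was the most even of the 49, with 15.6 ± 1.25 and 12.6 ± 0.406 CPM and a 1.40-fold spread. BTBD3, a BTB-domain protein of neurons, had 24.7, 28.3 and 25.2 CPM untreated and 17.5, 20.2 and 12.6 CPM treated. TMEM254, a membrane protein, had 11.1, 17.8 and 20.7 CPM untreated and 4.57, 6.20 and 10.7 CPM treated. For both of these every treated library was below every untreated one. HSPBAP1, which binds the small heat shock protein HSPB1, averaged 8.40 ± 1.15 and 6.68 ± 0.270 CPM.

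Of the 49, 3 are not protein-coding. LOC100294145, a long noncoding RNA gene of chromosome 6, was second in CPM with 59.4, 82.5 and 46.6 CPM untreated and 75.7, 75.3 and 64.0 CPM treated, and had 0 counts in WT. Its treated values lay inside the untreated range. LOC107984132 averaged 11.7 ± 0.374 and 14.4 ± 2.59 CPM. IPO5P1, a pseudogene copy of an importin gene, averaged 5.93 ± 0.886 and 7.25 ± 1.60 CPM, and its reads, like those of near-identical zinc finger genes, are uncertain because the treatment of reads that match several places is not given.

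**Figure D2:**
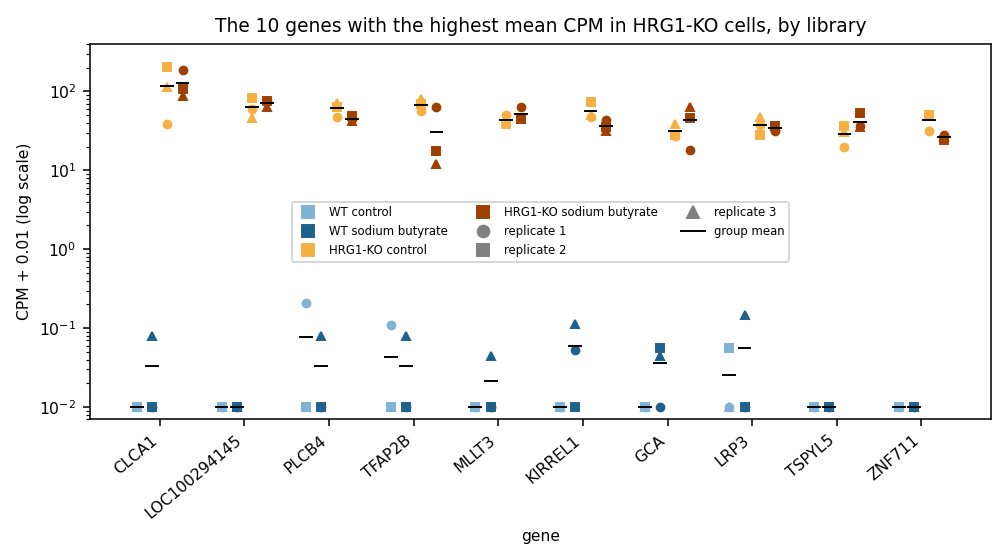
CPM + 0.01 on a log axis for the 10 genes with the highest mean over the HRG1-KO libraries, with a point per library (symbol for the replicate number, colour for the group) and a bar for each group mean. All HRG1-KO points lie between 11.97 and 201 CPM, the WT points lie at or below 0.200 CPM, and TFAP2B and CLCA1 show the widest HRG1-KO spread.

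Zinc finger genes were the largest single gene family, with 7 of the 49. Most encode proteins with repeated DNA-binding fingers, many of which repress transposable elements, and on chromosome 19 they stand in clusters of similar copies. ZNF711, an X-linked member linked to intellectual disability, had 31.5, 50.3 and 48.1 CPM untreated and 28.4, 24.1 and 27.6 CPM treated, with 0 counts in WT. The other 6 averaged 5.35 to 7.70 CPM over the HRG1-KO libraries. ZNF257 had 4 reads in WT and ZNF606 had 2, and ZNF605, ZNF492, ZNF607 and ZNF71 had 0. Of the 490 other tested genes with ZNF, ZSCAN or ZFP symbols, 97 (19.8%) were called higher in HRG1-KO cells without butyrate and 34 (6.94%) lower, where 11.7% and 10.9% of all tested genes were called. With butyrate 60 (12.2%) were called higher and 38 (7.76%) lower, where the shares of all genes were 10.1% and 8.89%. The median log2 difference of these 490 genes was 0.25 without butyrate and 0.07 with it, and the latter turned to -0.05 when only genes with at least 10 counts in every library were kept. That filter left 386 of them, of which 48 were called higher and 26 lower without butyrate, and 22 higher and 30 lower with it. Over all genes the same filter gave 1163 higher and 1171 lower without butyrate, and 961 and 986 with it. Some of the 490, such as ZNF470 and ZNF724 with 0 WT counts, passed the main filter only through HRG1-KO reads and could hardly be called lower.

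The genes ZNF257, ZNF492 and IPO5P1 lie in a single stretch of chromosome 19 (GRCh38.p14, from 22052484 to 23395471 between the start of ZNF257 and the end of ZNF91). All 7 genes of that stretch with enough reads to test were near 0 in WT. Its ends were placed at such genes after values were seen. With so few WT counts, the 7 passed the filter only through their HRG1-KO reads. ZNF98, ZNF492, ZNF730, ZNF724 and IPO5P1 had 0 WT counts, ZNF257 had 4 and ZNF91 had 26. In HRG1-KO libraries ZNF91, a repressor of primate retrotransposons, had 13.1 to 26.8 CPM, ZNF724 had 1.99 to 4.26 CPM, ZNF730 had 1.39 to 2.14 CPM and ZNF98 had 0.103 to 0.554 CPM. The nearest tested zinc finger genes on either side were read in both genotypes, with ZNF100 at 44.3 to 95.4 CPM in WT and 48.9 to 103 CPM in HRG1-KO, and ZNF675 at 4.71 to 10.5 and 10.6 to 14.6 CPM. Between ZNF100 and ZNF257, ZNF43 had 0 counts in both genotypes and ZNF208 had 6 counts in WT and 2 in HRG1-KO. Other zinc finger genes within the stretch were almost unread in both genotypes. ZNF99 and ZNF728 had 0 counts, and WT also had 0 of ZNF729, ZNF723 and ZNF676, of which HRG1-KO had 1, 14 and 33, 32 of the last from a single library. WT reads were thus few or none along the whole stretch, while HRG1-KO cells had reads of some of its genes.

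**Figure D3:**
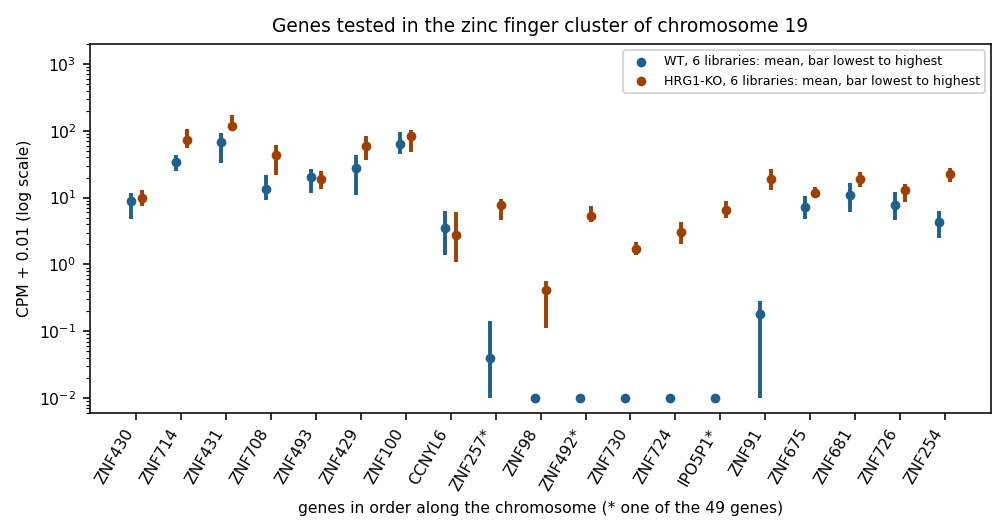
CPM + 0.01 on a log axis for the tested genes along the zinc finger cluster of chromosome 19, in order of position, with the mean as a point and the lowest to highest of 6 libraries as a bar, for WT and HRG1-KO. From ZNF257 to ZNF91 the WT points lie at or near the bottom while the HRG1-KO points lie above them, and outside that run both genotypes are read.

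Proximity to other genes that differed was seen beyond chromosome 19. For each of the 49 the nearest tested protein-coding gene on either side was taken, which gave 94 different genes, none of them among the 49. Of these, 43 (45.7%) were called higher in HRG1-KO cells without butyrate and 7 (7.45%) lower, and with butyrate 38 (40.4%) were called higher and 4 (4.26%) lower. The shares over the 13109 other tested protein-coding genes were 12.2% and 11.2% without butyrate and 10.6% and 9.02% with it. Averaged over the chromosomes the 94 genes lie on, the share called higher was 15.5% and 13.1%. Of the 94, 11 had a WT mean under 0.1 CPM and 21 had one at or under 1 CPM. The 11 passed the count filter through their HRG1-KO reads and could hardly be called lower. The stricter filter applied above to the zinc finger genes left 64 neighbours. It called 23 of them higher and 3 lower without butyrate, and 18 and 2 with it. Over all genes it called 1163 higher and 1171 lower without butyrate. The neighbours were not used by the rule, but they come from the same libraries and the same contrast, and their counts are given as a description.

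The share was highest for the nearest genes. Within 100 kb 23 of 38 neighbours (60.5%) were called higher without butyrate, and beyond it 20 of 56 (35.7%). Counting outward, the share without butyrate was 28.9% for the second gene on each side and between 15.7% and 28.7% for the third to the eighth. With butyrate it was 21.1% for the second and 16.1% to 23.3% for the third to the eighth, with no further fall outward. Of the 68 neighbours with a mean above 5 CPM over the 12 libraries, 28 (41.2%) were called higher, against 12.6% of protein-coding genes at that level. For the 52 genes read only in WT the calls leaned the other way, and 28 of 101 neighbours (27.7%) were called lower in HRG1-KO cells and 7 (6.93%) higher.

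**Figure D4:**
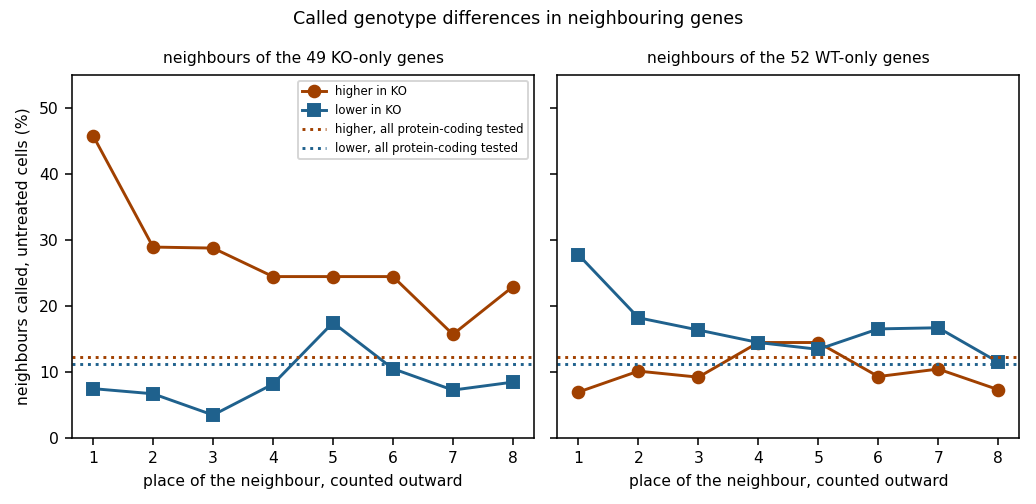
Share of neighbouring genes called higher or lower in untreated HRG1-KO cells (edgeR adjusted p under 0.05) against the place of the neighbour counted outward, for the 49 genes read only in HRG1-KO (left) and the 52 read only in WT (right), with dotted lines for all tested protein-coding genes. The share called higher starts at 45.7% on the left and the share called lower at 27.7% on the right, and both are lower further out.

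Some neighbours were also near 0 in WT. CLCA2, 12.4 kb from CLCA1, had 0 counts in WT and a mean of 3.13 CPM in HRG1-KO. SIX3, a homeobox gene 59.1 kb from SIX2, had 0 counts in WT and 5.88 CPM in HRG1-KO. IFIH1, the cytosolic RNA sensor MDA5, ends 0.079 kb from GCA and had at most 0.279 CPM in WT and 4.02 to 10.7 CPM in HRG1-KO, and whether reads of so close a pair were kept apart cannot be told because the use of strand is not given.

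Further neighbours differed by a wide margin. LGMN, a lysosomal protease 14.8 kb from RIN3, had 0.0501 to 11.1 CPM in WT and 23.4 to 106 CPM in HRG1-KO. PLCB1, the relative next to PLCB4, averaged 0.738 and 12.9 CPM, and ANKEF1 on the other side 0.0828 and 9.19 CPM. PARP14 and SLC49A4, on either side of HSPBAP1, averaged 11.4 and 0.0913 CPM in WT and 50.8 and 4.79 CPM in HRG1-KO. CEBPA, a myeloid transcription factor 91.1 kb from LRP3, averaged 2.41 and 24.0 CPM.

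Some neighbours were lower in HRG1-KO cells. TMEM254 and PRXL2A, 315 kb apart on chromosome 10, lie on either side of ANXA11, an annexin that was lower in HRG1-KO, with 167 to 251 CPM in WT and 74.5 to 159 CPM in HRG1-KO. NUTM2E and TSPAN14, the outer neighbours of the pair, were also called lower in untreated HRG1-KO cells. COBLL1 and ZFHX4, the nearest tested protein-coding genes beyond GCA and CRISPLD1, lie as far off as 2283 and 1647 kb and went the other way. Their WT means were 8.57 and 9.95 CPM and their HRG1-KO means 0.0369 and 0.0483 CPM. Both belong to the 52 genes read only in WT.

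The 49 genes lay on many chromosomes, with 7 on chromosome 19 (14.3%, where 7.58% of tested genes lie), 5 each on 1 and 6, and 4 each on 2, 10, 13 and 20. Chromosome 13 held 8.16% of the 49 and 1.76% of the tested genes, with SOX1, DZIP1, LHFPL6 and LOC107984132. None lay on chromosomes 4, 11, 16, 17, 18, 21 or 22.

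For butyrate the rule set no direction, but its floor in both HRG1-KO groups drew on the same 6 libraries. Genes near 0 in either of these groups could not enter, so the number called among the 49 is partly shaped by the rule. With edgeR's quasi-likelihood test without pairing, adjusted over 15805 genes, none of the 49 was called between treated and untreated HRG1-KO cells. Of all genes 3.4% were called (2.8% higher and 0.595% lower with butyrate). With the replicate number as a block, the test called 3 of the 49 (6.12%) and 11.7% of all genes. In the unpaired fit 9 of the 49 (18.4%) had an unadjusted p under 0.05, where 19.8% of all genes did. The smallest adjusted p among the 49 in that fit was 0.114. Of the 49, 23 leaned up and 26 down, with a median log2 change of -0.004 against 0 for all genes. In 6 genes all treated libraries were above the untreated ones and in 10 all were below, 16 of 49 in total. Over all 15805 genes 2408 were above and 1225 below in this way, 22.99% in total. These counts use CPM without the scaling factors of the fit, which were 0.916 to 1.012 in untreated and 1.006 to 1.105 in treated HRG1-KO libraries. Treated values therefore stand somewhat higher on this scale than in the fit.

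Among the 9, IGDCC3, an immunoglobulin superfamily receptor-like protein, had 3.43, 4.38 and 7.94 CPM untreated and 19.99, 21.01 and 18.6 CPM treated. All treated libraries were above all untreated ones, and the log2 change was 1.80 ± 0.58 (SE), with an adjusted p of 0.114. SLC24A3 had a log2 change of 1.23 ± 0.45 (adjusted p = 0.177). The other 7 pointed down with butyrate, with log2 changes of -0.73 for KIRREL1, -0.76 for BTBD3, -0.81 for ZNF711, -0.92 for CRISPLD1, -0.98 for PLBD1, -1.23 for TFAP2B and -1.32 for TMEM254, and adjusted p-values by edgeR from 0.137 (ZNF711) to 0.252 (TFAP2B).

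Libraries with the same number deviated together, and a fit with the replicate number as a block called 3 of the 49 (6.12%), where 11.7% of all genes were called. IGDCC3 rose (adjusted p = 0.0360), and TFAP2B (0.0424) and TMEM254 (0.0346) fell in that edgeR fit. DESeq2 called IGDCC3 (adjusted p = 7.69e-04) and TMEM254 (0.0485), with 9.73% of all genes called. An edgeR fit of the 6 HRG1-KO libraries alone called IGDCC3 (adjusted p = 0.0305), with 479 genes called in all. The share of tested genes called was not counted for that fit. Leaving out the 4 libraries numbered 1 gave 7 calls (14.3%), IGDCC3 and DZIP1 up and TFAP2B, ZNF711, PLBD1, CRISPLD1 and SLC35D3 down, with 13.1% of all genes called. TFAP2B was also called when only the first treated HRG1-KO library was left out, with a log2 change of -2.37 (edgeR adjusted p = 0.0134). The latter fit called 833 genes in all, and its share of tested genes was not counted either. Leaving out any of the 6 HRG1-KO libraries moved the number of all genes called from 537 to between 48 and 833, so the count over all genes rests on each of them.

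**Figure D5:**
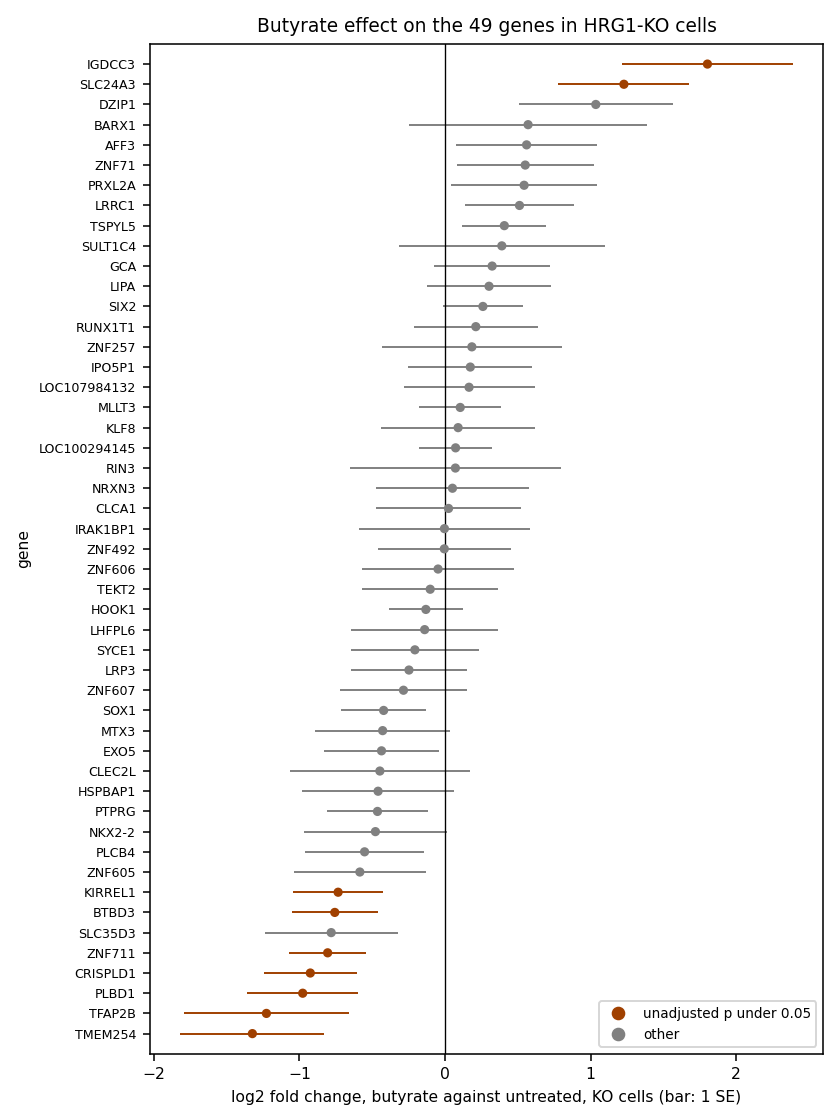
Log2 change with butyrate in HRG1-KO cells for each of the 49 genes, sorted, with a bar of 1 SE on either side, coloured where the unadjusted p was under 0.05. Values run from -1.32 for TMEM254 to 1.80 for IGDCC3 and spread around 0.

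The first untreated HRG1-KO library was the lowest of the 6 for 14 of the 49 genes and the highest for 2. These are ranks of CPM by library total, and this library had the smallest scaling factor of the 6 in the fit (0.916). The shares over all tested genes were not counted. The other two untreated ones were the lowest for 6 and 4 and the highest for 10 each. The 3 treated ones were the lowest for 12, 3 and 10 and the highest for 9 each. Across the 49, 11 genes differed by over 3-fold between HRG1-KO libraries and 18 by under 2-fold, with a median of 2.16-fold.

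The thresholds cut through a continuous range. Just inside the lower limit on HRG1-KO were ZNF605, ZNF492 and IGDCC3, with a lower group mean of 5.03, 5.15 and 5.25 CPM. ZNF605 had 4.26, 7.60 and 9.06 CPM untreated and 4.20, 5.07 and 5.81 CPM treated, and ZNF492 had 4.90, 5.39 and 5.17 CPM untreated and 7.48, 4.81 and 4.34 CPM treated. Just outside were CHIC1 at 4.93, ZFP28 at 4.69 and ZC3HAV1L at 4.13 CPM, and ZFP28 is a neighbour of ZNF71 with 0 counts in WT. On the WT side PRXL2A (0.0801 CPM), BARX1 (0.0785) and RIN3 (0.0758) were just inside. RIN3, which activates RAB5 in endocytosis, had all 5 of its WT reads in the second treated library, and 2.696, 6.93 and 7.18 CPM untreated and 5.68, 7.92 and 5.47 CPM treated in HRG1-KO. CHI3L2, a chitinase-like protein, was just outside at 0.101 CPM, with 334 CPM in untreated and 261 CPM in treated HRG1-KO cells, more than any of the 49, and CARMIL1 and MUC15 followed at 0.102 and 0.103 CPM.

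None of the 49 was in any of the 20 marker and pathway lists examined. CDKN2A, CDKN2B and MTAP, which K562 lacks, had 0 counts in all 12 libraries. All 14 erythroid genes were tested, and their summed level was 8520 to 54473 CPM in WT and 4434 to 8334 CPM in HRG1-KO, where HBE1, HBG1, HBG2 and NFE2 were called lower without butyrate and ALAS2 was among those called higher. Reads of the near-identical HBG1 and HBG2 are uncertain. The fibroblast, endothelial and hepatocyte lists had higher sums in every HRG1-KO library, and their part in the results was not tested. The fibroblast list (12 genes) summed to 129 to 347 CPM against 11.3 to 38.4 CPM in WT, with SPARC its only called gene without butyrate and LUM, POSTN and FAP at or near 0. The endothelial list (10) summed to 53.5 to 179 against 8.39 to 29.6 CPM, with ESAM called higher and PECAM1 called lower without butyrate and CDH5, KDR and EMCN at or near 0. The hepatocyte list (10) summed to 14.2 to 122 against 1.80 to 13.5 CPM, through TF, with TTR, FGB, SERPINA1 and APOH at or near 0.

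The other marker lists had overlapping sums. Called higher and lower in untreated HRG1-KO cells were 3 and 1 of 7 tested megakaryocyte genes, 2 and 0 of 5 mast cell and basophil genes, 1 and 3 of 8 monocyte and macrophage genes, 2 and 1 of 4 T and NK cell genes, 0 and 1 of 4 B cell genes, 0 and 1 of 4 epithelial genes, 2 and 0 of 2 neuronal genes and 1 and 1 of 3 pluripotent stem cell genes. Among pathway lists, 6 of 21 Wnt genes were called higher and 2 lower, 2 and 3 of 18 Notch genes, 5 and 3 of 19 TGF-beta and BMP genes, 7 and 2 of 24 receptor tyrosine kinases and ligands, 2 and 6 of 22 cytokine and chemokine genes, 1 and 6 of 16 imprinted genes, and 1 and 1 of 7 germline genes. The germline list was led by SYCP2, another synaptonemal complex gene, with 0.740 to 4.53 CPM in WT and 120 to 206 CPM in HRG1-KO, beside SYCE1 among the 49. The rest of that list did not share this direction. TEX11 was the gene called lower without butyrate. Of the tested genes that were not called, STK31 and BOLL leaned higher and SYCP3, STAG3 and PIWIL2 leaned lower. SYCP1 had no reads in either genotype.

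Homeobox genes, solute carriers and genes with LOC symbols were the other families with at least 2 of the 49. Of the 74 other tested homeobox genes outside the HOX clusters, beside BARX1, NKX2-2 and SIX2, 19 (25.7%) were called higher and 10 (13.5%) lower in untreated HRG1-KO cells, and 18 and 8 with butyrate. Of 272 other solute carriers, beside SLC24A3 and SLC35D3, 38 were called higher and 28 lower without butyrate, and 33 and 25 with it. Of 515 other genes with LOC symbols, 31 were higher and 36 lower without butyrate, and 33 and 27 with it. The homeobox shares can be read beside the 11.7% and 10.9% of all genes, and no test of the difference was run.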

How the data were processed

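The authors deposited 1 table of counts per gene symbol for 12 K562 libraries. The submitters' processing notes name hg38, STAR 2.7.11b and FastQC 0.12.1. How reads were assigned to genes, with which annotation and strand setting, is not given in the sources used here, so reads of overlapping, antisense or near-identical genes cannot be told apart. Groups and replicate numbers came from sample titles and columns from library names.

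CPM was the count over the column sum times 1000000. Library values and statements on their overlap use this CPM, without TMM factors. The counts were fitted in R 4.3.3 with edgeR 4.0.16 (limma 3.58.1): filterByExpr with a minimum count of 10 kept 15805 genes, scaling was TMM, and a quasi-likelihood model had 1 mean per group over all 12 libraries. Benjamini-Hochberg adjustment ran over all genes kept, and a gene was called at an adjusted p under 0.05. DESeq2 1.42.0 was an alternative, with other scalings and filters, a replicate block, fits of 6 libraries and each library left out. Same-numbered libraries correlated at 0.147 to 0.468 for butyrate in HRG1-KO, 0.210 to 0.361 for genotype without butyrate and 0.315 to 0.595 with it, where differently numbered ones reached at most 0.123, 0.0692 and 0.343. Every same-numbered pair was above 0.1, so the numbers were taken to pair libraries, although with butyrate the 2 ranges for genotype overlapped. The main fit did not use this pairing, and the fit with the replicate block did. The model script was tested on simulated data. Intervals of ratios are exact for Poisson counts and cover counting error only.

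The genes, lists and families were chosen with earlier results of these data known, and the role groups, the neighbour comparison, the regions and the printed promoters were chosen after values were seen. Per-library values were to be given for the 10 genes with the highest mean CPM in HRG1-KO, for called genes, and for the 3 genes nearest each threshold. Those of other genes were chosen after their values were seen. Positions, biotypes and promoters came from RefSeq (GRCh38.p14), exon lengths from GENCODE 29.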

Additional observations from a re-analysis of the deposited data

How the results depend on the processing

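The number of genes that met the rule moved with its thresholds, from 49 to 83 with a lower limit of 2 CPM in HRG1-KO, 27 with 10 CPM, 108 with an upper limit of 0.5 CPM in WT and 24 when the thresholds held in every library. Leaving out 1 library gave 45 to 54. Leaving out the 4 libraries numbered 1, an alternative chosen after seeing the data, gave 46, of which 41 were among the 49. For butyrate in HRG1-KO the 537 genes called became 304 with at least 10 counts in every library, 1538 by DESeq2, 1852 with the replicate block and 2164 without the libraries numbered 1, and 48 to 833 with 1 library left out. Of the 49 genes, 2 were called by DESeq2, 3 with the replicate block, 1 in a fit of the 6 libraries alone, 7 without the libraries numbered 1 and 0 to 1 with 1 library left out. None of the 9 genes with an unadjusted p under 0.05 changed sign in any alternative, and 12 of 126 alternative values passed the threshold. For genotype without butyrate the 3574 calls became 2334 with at least 10 counts in every library, and 2485 to 2844 with 1 library left out. With butyrate the 3009 became 1947 with that filter, 4612 with the replicate block, 1802 in the 6 libraries alone, and 2014 to 3477 with 1 left out. Neighbours called higher numbered 23 of 64 without butyrate and 18 of 64 with it under that filter, which removes genes near 0 in WT, and 32 to 40 and 30 to 38 with 1 library left out. Zinc finger genes called higher numbered 48 and 22 of 386 under the filter, with 26 and 30 called lower, and 67 to 84 and 47 to 66 with 1 left out. The block moved no other count by over 1.5 times. Where the cause of a change is not named it was not tested. In WT libraries 3 counts correspond to 0.103 to 0.150 CPM, so single WT values near or below that rest on few reads.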
